A study of Rattus norvegicus with 6 samples.

Results

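The 10 genes described here belong to the Notch pathway and were measured in rat chondrocytes: the receptors Notch1, Notch2 and Notch3, the ligands Jag1, Jag2 and Dll1, and the target genes Hes1, Hey1, Hey2 and Heyl. They were found by gene symbol among the 18923 genes counted in each sample, and each symbol matched 1 identifier. The cells were primary chondrocytes of wild-type female Sprague-Dawley rats aged 24 h at passage 1 or 2, grown in high-glucose DMEM with fetal bovine serum and penicillin-streptomycin. The CON group (3 samples) stayed in this medium for 24 h, and the RA group (3 samples) received 1 µM retinoic acid (RA), the form of vitamin A that nuclear receptors bind, for the same 24 h. How many animals gave cells to each sample is not given in the sources used here. Poly(A) RNA was sequenced, and the question was which transcripts differed between RA and CON.

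Notch receptors sit on the cell surface and are activated by Jagged and Delta ligands on a neighbouring cell. An ADAM protease and then γ-secretase cut the bound receptor, and its intracellular part enters the nucleus, where it joins the DNA-binding protein RBPJ and Mastermind coactivators and turns on Hes and Hey genes, which encode basic helix-loop-helix repressors. In cartilage the pathway is known for restraining the differentiation of skeletal progenitors into chondrocytes. Transcript counts measure the amounts of these mRNAs and not the cleavage of the receptors.

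The promoter sequences of Hes1, Hey2 and Heyl are shown because Hes and Hey genes are the transcriptional readout of the pathway. RBPJ binds DNA at a core of TGGGAA, and retinoid receptors bind hexamers close to AGGTCA. Each window holds 250 bases before and 50 bases from the transcription start, from RefSeq on GRCr8, a later build than the one used for counting. Capitals mark TGGGAA or AGGTCA on either strand. The windows are those of Hes1 (chr11:84212996-84213295, minus strand), Hey2 (chr1:28640850-28641149, plus strand) and Heyl (chr5:140793021-140793320, plus strand), each written 5′ to 3′ along the gene.
Hes1: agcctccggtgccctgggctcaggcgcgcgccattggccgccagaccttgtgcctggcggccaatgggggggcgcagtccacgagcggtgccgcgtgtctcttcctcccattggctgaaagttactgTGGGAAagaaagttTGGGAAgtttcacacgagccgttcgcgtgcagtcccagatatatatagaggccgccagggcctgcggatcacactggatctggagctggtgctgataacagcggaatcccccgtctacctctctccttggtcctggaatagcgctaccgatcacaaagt
Hey2: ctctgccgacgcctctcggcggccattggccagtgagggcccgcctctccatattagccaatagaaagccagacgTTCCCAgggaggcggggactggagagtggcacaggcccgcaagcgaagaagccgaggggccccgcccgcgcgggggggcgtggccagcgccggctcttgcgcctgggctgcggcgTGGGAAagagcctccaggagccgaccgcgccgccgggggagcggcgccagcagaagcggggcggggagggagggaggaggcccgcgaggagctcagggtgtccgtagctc
Heyl: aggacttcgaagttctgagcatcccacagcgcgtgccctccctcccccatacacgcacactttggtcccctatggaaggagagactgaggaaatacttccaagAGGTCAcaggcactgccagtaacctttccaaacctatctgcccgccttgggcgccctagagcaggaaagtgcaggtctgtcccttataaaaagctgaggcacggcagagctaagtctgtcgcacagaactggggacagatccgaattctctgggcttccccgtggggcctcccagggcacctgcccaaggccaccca

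Both TGGGAA matches in the Hes1 window lay on the strand of the gene, with first bases at -123 and -109 from the start, close to each other. The Hey2 window also held 2, on opposite strands, at -175 and -60. The Heyl window held none, and it was the only 1 of the 10 windows of 9 matched members with AGGTCA, at -147. Among the other members, Dll1 held 2 matches to TGGGAA and Notch3 held 1. Of all 33469 RefSeq windows of this length, 25.7% held TGGGAA at least once and 3.85% at least 2 times, and 16.2% held AGGTCA. These windows differ in composition from those of the members, with a median GC content of 51.7% against 69.0% (58.0% to 84.7%) for the members. The Hes1 and Notch1 windows each held 4 matches to the N-box CACNAG, a site that Hes repressors bind, which 43.1% of all windows held at least once and 0.353% at least 4 times. Of the 4 in Notch1, 2 overlapped on opposite strands. Notch3 held 1, and the other 6 of the 9 matched members held none. None of these matches overlapped TGGGAA or AGGTCA. A match is a description of letters and not a binding site.

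Total counts per sample ran from 29370025 to 38007486, with CON sample 3 the deepest. Of the 13438 genes left after removing those with few counts, 667 (4.96%) were differentially expressed genes (DEGs), with an adjusted p below 0.05 by edgeR's quasi-likelihood test and an absolute log2 fold change above 0.58, 2.67% higher and 2.29% lower in RA, and 1319 (9.82%) passed the adjusted p alone. Below, "rose" and "fell" are used for genes that passed the adjusted p. Cyp26a1, the RA-degrading enzyme and a standard sign of RA exposure, went from between 0.240 and 0.562 FPKM in CON to between 3.47 and 4.65 FPKM in RA, and Rarb, a retinoic acid receptor, was higher in RA by 1.43 on the log2 scale (adjusted p = 0.0493, edgeR). CON sample 1 stood farthest from its group, with a root mean square log2 distance of 0.474 to the other CON samples, against 0.397 and 0.413 for CON samples 2 and 3 and 0.357 to 0.358 for the RA samples.

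The levels of the members were very unequal. FPKM (fragments scaled by gene length and by the total counted) allows comparison between genes, and over all 6 samples Notch2 had a mean of 21.0 FPKM, Hes1 7.67, Jag1 4.57, Notch1 1.52 and Notch3 0.958. The ranges of these 5 genes did not overlap with each other, so this order held in every sample. Hey2 (0.230 FPKM), Hey1 (0.140), Jag2 (0.0970), Dll1 (0.0314) and Heyl (0.0301) lay below every Notch3 value. The order among these 5 is not resolved throughout: the range of Hey1 spanned that of Hey2, with Hey1 above Hey2 in CON samples 1 and 2, and the ranges of the lower 4 overlapped. Of the 10 members, 7 passed the filter on low counts, and Dll1, Hey1 and Heyl did not.

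**Figure D1:**
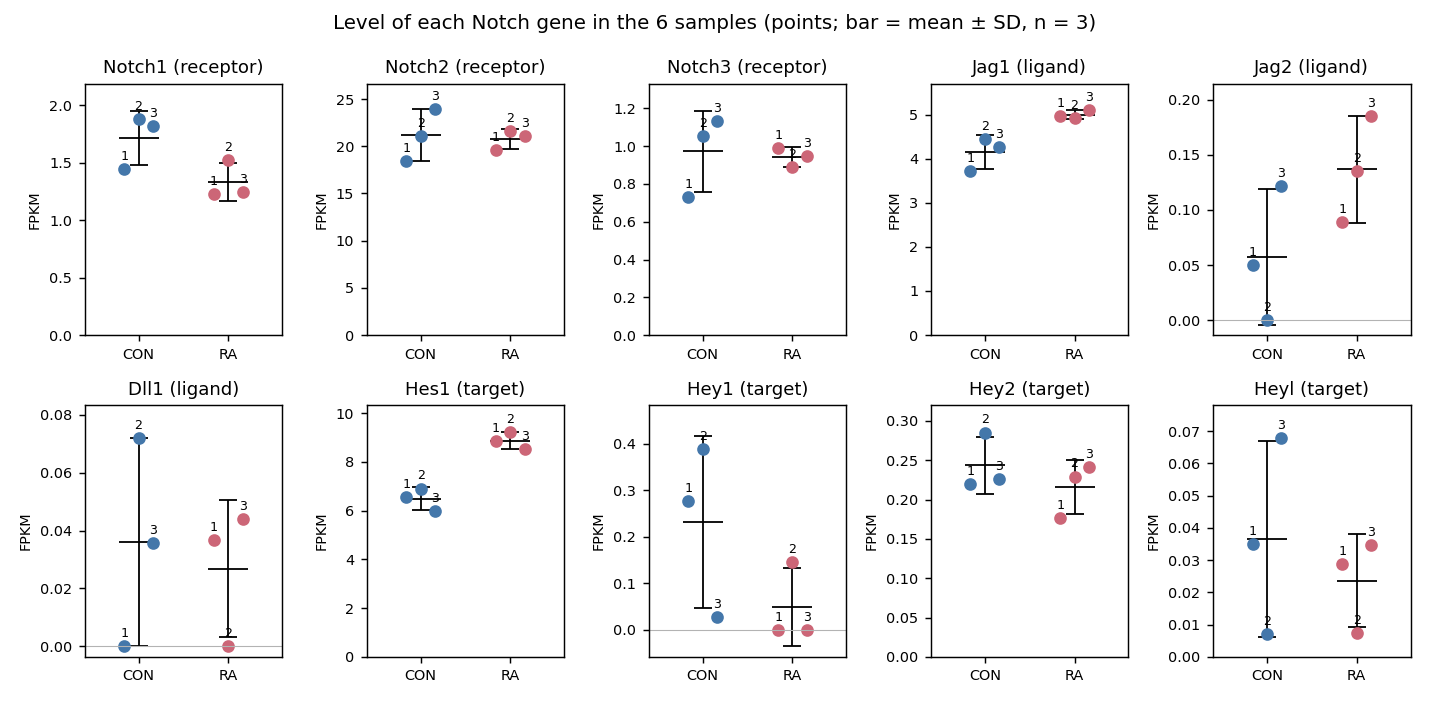
Each panel plots 1 Notch gene, with FPKM on the y axis from 0 and the 3 CON and 3 RA samples as numbered points, and the bar gives the mean with its SD (n = 3). Hes1 and Jag1 are the genes whose 3 RA points all lie above the 3 CON points, while Dll1, Hey1 and Heyl stay below 0.4 FPKM with points at or near 0.

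None of the 7 tested members was a DEG by edgeR, where 4.96% of all tested genes were (2.67% higher and 2.29% lower in RA), nor by DESeq2 or by limma. With the adjusted p alone, 1 of the 7 passed, Hes1, beside 9.82% of all tested genes. At an unadjusted p below 0.05 there were 3, Hes1, Jag1 and Notch1, beside 24.0% of all tested genes. The groups did not overlap for 2 of the 7, Hes1 and Jag1, both higher in RA, as for 18.9% of all tested genes in that direction, and for no member in the lower direction (13.3% of all tested genes, 32.2% in either direction).

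Among the receptors, Notch2 (ENSRNOG00000018835) supplied most of the receptor mRNA. Its values were 18.4, 21.1 and 23.9 FPKM in CON samples 1, 2 and 3 and 19.6, 21.6 and 21.1 FPKM in RA samples 1, 2 and 3. The RA values lay inside the CON range. RA and CON differed by -0.041 on the log2 scale (95% interval -0.27 to 0.19, adjusted p = 0.840, edgeR), so a change as large as the fold threshold of 0.58 in either direction lies outside the interval. Of the summed FPKM of Notch1 to Notch4, Notch2 made up between 87.5% and 89.2% in CON and between 89.6% and 90.2% in RA.

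Notch1 (ENSRNOG00000019322), the receptor most studied in cell fate decisions, measured 1.45, 1.88 and 1.82 FPKM in the CON samples and 1.23, 1.52 and 1.24 FPKM in the RA samples. RA samples 1 and 3 lay below every CON sample, and RA sample 2 lay just above CON sample 1. Notch1 differed by -0.38 on the log2 scale (standard error 0.137, 95% interval -0.69 to -0.068), with an unadjusted p of 0.0227 and an adjusted p of 0.134 by edgeR. Without CON sample 1 Notch1 passed at -0.49, with an adjusted p of 0.00875 by edgeR. Over all alternatives that p ran from there to 0.369. Within each sample, Notch1 was 7.87, 8.91 and 7.60 FPKM for every 100 FPKM of Notch2 in CON and 6.27, 7.03 and 5.91 in RA. This ratio averaged 8.13 ± 0.693 (SD) over the 3 CON samples and 6.40 ± 0.576 over the 3 RA samples. It was chosen after the values were seen, and no RA value reached a CON value. The two-sided exact permutation p of 0.1 is the smallest that 20 splits of 6 samples can give, follows from that separation and adds nothing to it.

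Notch3 (ENSRNOG00000004346), a receptor typical of vascular mural cells, measured 0.730, 1.06 and 1.13 FPKM in CON and 0.990, 0.889 and 0.950 FPKM in RA. The RA values lay within the wider CON range, and the log2 fold change was -0.062 (95% interval -0.46 to 0.34, adjusted p = 0.867, edgeR). The fourth receptor, Notch4, which belongs to the endothelium and is named after its values were seen, stood between 11 and 27 counts per sample.

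Among the Jagged and Delta ligands, with Dll4 not analysed here, Jag1 (ENSRNOG00000007443) was the one expressed at more than trace level. It made up between 95.7% and 98.4% of the summed FPKM of Jag1, Jag2, Dll1 and Dll3 in each sample. Its values were 3.72, 4.45 and 4.27 FPKM in CON and 4.96, 4.92 and 5.11 FPKM in RA. Every RA sample was above every CON sample. The difference was 0.26 on the log2 scale (standard error 0.0856, 95% interval 0.059 to 0.45), with an unadjusted p of 0.0167 and an adjusted p of 0.111 by edgeR. Without CON sample 1, the lowest of the 6, it was 0.18 with an adjusted p of 0.0776 in edgeR, the lowest of all alternatives, whose highest was 0.327.

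Jag2 (ENSRNOG00000013927) had 7, 0 and 21 counts in CON samples 1, 2 and 3 and 12, 18 and 26 counts in RA samples 1, 2 and 3. The groups overlapped through CON sample 3, and the gene reached the count filter only through that sample and the RA samples. The log2 fold change of 1.15 carried an interval from -0.59 to 2.90 (adjusted p = 0.401, edgeR), and it was 0.61 without CON sample 2 and 2.39 without CON sample 3. Dll1 (ENSRNOG00000059984), a Delta ligand, had 0, 8 and 5 counts in CON and 4, 0 and 5 in RA, which lies close to the limit of 3 counts that a count of 0 allows (0.0789 to 0.102 CPM, counts scaled to the sample total, over the 6 samples). The fit without a filter on low counts gave Dll1 a log2 fold change of -0.40 with a standard error of 1.13 (adjusted p = 0.872, edgeR). A difference in Dll1 was thus not resolved at this depth.

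Among the targets, Hes1 (ENSRNOG00000001720), a direct target whose protein also represses its own gene, rose. It measured 6.56, 6.91 and 5.98 FPKM in CON and 8.84, 9.22 and 8.52 FPKM in RA, from 291 to 328 counts in CON and from 379 to 391 in RA. The groups were well apart, with the lowest RA sample above the highest CON sample. The log2 fold change was 0.44 (standard error 0.100, 95% interval 0.21 to 0.67, adjusted p = 0.0278, edgeR), a 1.36-fold higher level that stays under the fold threshold. The size held whichever sample was removed (0.39 to 0.48), but with fewer samples the adjusted p was below 0.05 in only 1 of the 6 fits, that without CON sample 1 (0.0140). In the other fits by edgeR it was 0.0677 (CON sample 2 left out), 0.0673 (CON sample 3), 0.0989 (RA sample 1), 0.13 (RA sample 2) and 0.0931 (RA sample 3). Hes1 passed the adjusted p in every setting tried with all 6 samples, with a lowest value of 0.00595.

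The 3 Hey genes, relatives of Hes1 best known from the cardiovascular system, were at trace level. Hey2 (ENSRNOG00000013364) had 18, 23 and 23 counts in CON and 14, 18 and 20 in RA, with overlapping groups and a log2 fold change of -0.18 (95% interval -0.86 to 0.49, adjusted p = 0.750, edgeR). With a sample left out its log2 fold change ran from -0.27 to -0.051, the latter without RA sample 1, and it was -0.065 without CON sample 2. Hey1 (ENSRNOG00000011593) had 8, 11 and 1 counts in CON and 0, 4 and 0 in RA, 20 against 4 counts in sum. CON sample 3 and RA sample 2 made the groups overlap, and the fit without a filter on low counts gave an unadjusted p of 0.105 (adjusted p = 0.387, edgeR). Heyl (ENSRNOG00000015318) had 5, 1 and 12 counts in CON and 4, 1 and 5 in RA. Of the 4 targets, Hes1 accounted for between 91.0% and 94.9% of the summed FPKM in CON and between 96.0% and 97.7% in RA.

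CON sample 1 was the lowest CON sample for 5 of the 7 tested members (Notch1, Notch2, Notch3, Jag1 and Hey2), and it was the lowest CON sample for 41.3% of all genes tested. With it left out, Notch1 joined Hes1 past the adjusted p, as 16.5% of all tested genes passed it in that fit against 9.82% with all 6 samples, and still no member was a DEG. Its part in the values of these genes beyond this was not tested.

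**Figure D2:**
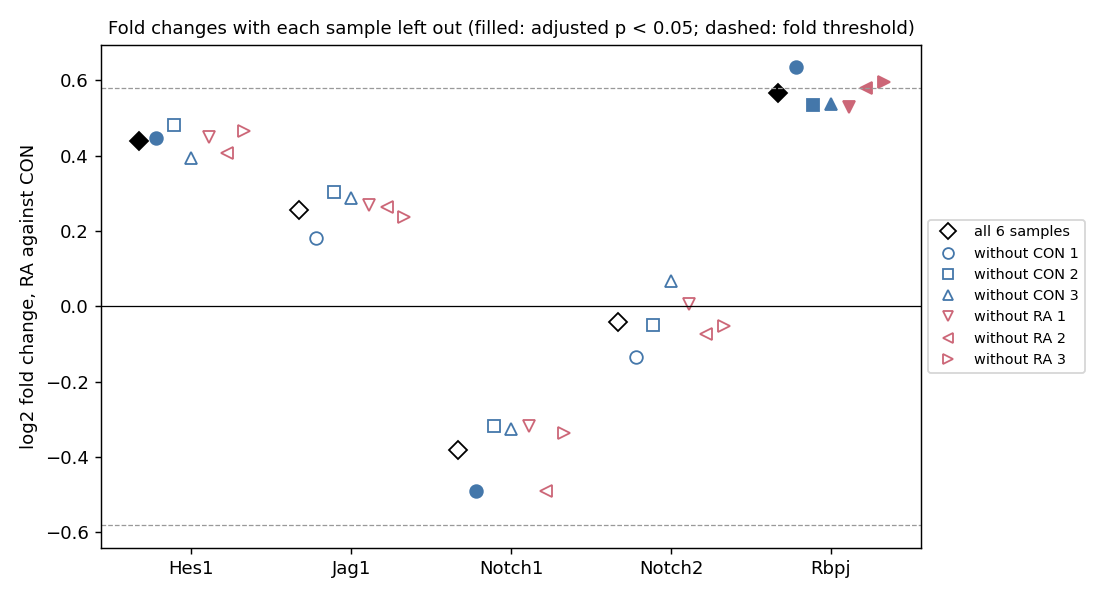
The y axis gives the log2 fold change of RA against CON for 5 genes, with all 6 samples (black) and with each CON (blue) or RA (red) sample left out, and filled symbols passed the adjusted p of 0.05. Hes1 stays between 0.39 and 0.48 and Rbpj between 0.53 and 0.63, whereas Notch2 crosses 0 and Notch1 is filled only without CON sample 1.

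The rest of the pathway was described with a list of 55 other genes grouped by role, of which 52 were in the tables and 43 passed the filter on low counts. Kat2b, Maml3 and Dll4 were not analysed here. None of the 43 was a DEG by edgeR, beside 4.96% of all tested genes, or by DESeq2, where 752 of all 13438 tested genes were. By limma on log2(FPKM + 0.1) 1 of the 43, Rbpj, was a DEG, where 657 of all 13438 were. Of the 43, 3 passed the adjusted p, each higher in RA, and none did in the lower direction, beside 5.31% and 4.5% of all tested genes. At an unadjusted p below 0.05 there were 9 of 43 (24.0% of all tested genes). The median log2 fold change of the 43 was 0.00062, and that of all tested genes was -0.0057, with 22 of the 43 above 0 and 21 below. Between 1 and 8 of the 43 passed the adjusted p when a sample was left out, with 2 or fewer when CON sample 2 or any RA sample was removed (4.83% to 5.3% of all tested genes in the same fits), 4 when CON sample 3 was (9.67%) and 8 when CON sample 1 was (16.5%). The genes added without CON sample 1, named after their values were seen, were Dlk1 (-0.56), Tle1 (-0.35), Maml2 (-0.31), Mib2 (-0.23) and Pofut1 (-0.18), with log2 fold changes all below 0. DESeq2 on all 6 samples called 4 of the 43 by adjusted p (12.9% of all tested genes), the fourth being Tle1, lower in RA by -0.32 (adjusted p = 0.0410).

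**Figure D3:**
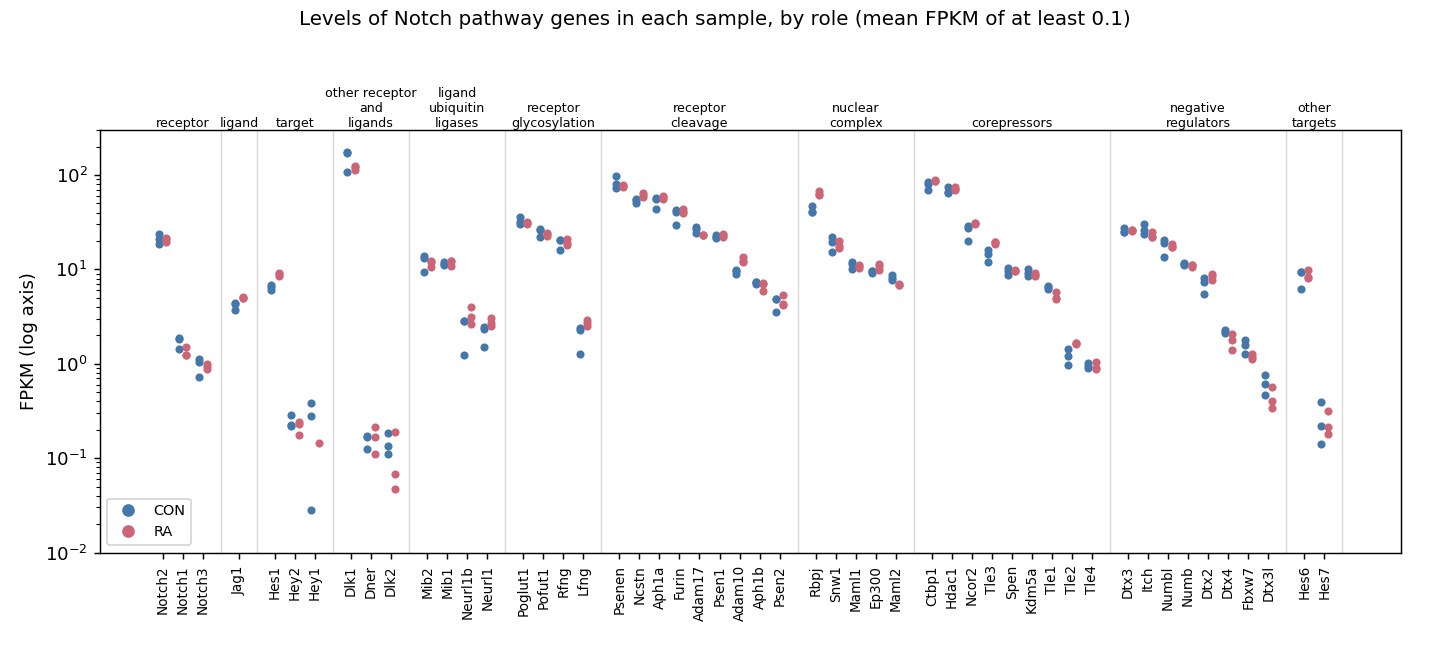
FPKM in each sample, on a log axis, for the 51 Notch pathway genes with a mean of at least 0.1 FPKM, grouped by role, with CON in blue and RA in red (samples at 0 cannot be drawn, such as Hey1 in RA samples 1 and 3). Dlk1 lies highest, at 108 to 177 FPKM, and the Hey genes lie below 0.4 FPKM.

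In the nuclear complex, Rbpj, the DNA-binding partner of every Notch receptor, rose from 46.6, 40.9 and 40.2 FPKM in CON to 67.5, 62.3 and 61.0 FPKM in RA. The groups were far apart. On the log2 scale Rbpj was higher by 0.57 (standard error 0.0734, 95% interval 0.40 to 0.73, adjusted p = 0.00204, edgeR), just under the fold threshold of 0.58, and it still passed the adjusted p whichever of the 6 samples was omitted. Leaving out CON sample 1 (0.63) or RA sample 3 (0.59) made it a DEG. Of the 5 tested genes of the complex, Rbpj was the 1 that passed the adjusted p, beside 9.82% of all tested genes. The coactivator Maml2, named after its values were seen, went from 8.23 ± 0.529 to 6.90 ± 0.0830 FPKM (SD, n = 3 each, adjusted p = 0.0669, edgeR).

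Of 9 tested genes of receptor cleavage, 1 passed the adjusted p, a share near the 9.82% of all tested genes. Adam10, the protease of the first ligand-dependent cut, named after its values were seen, rose from 9.62, 9.79 and 8.92 FPKM in CON to 13.4, 12.2 and 11.9 FPKM in RA, higher by 0.39 on the log2 scale (adjusted p = 0.00973, edgeR). Without RA sample 1 its adjusted p was 0.0549 at a log2 fold change of 0.35 (edgeR), the highest of all alternatives, whose lowest was 2.03e-04. The related protease Adam17, also named after its values were seen, had a value of -0.20 on the same scale (adjusted p = 0.0950, edgeR), with every RA sample below every CON sample, and passed without CON sample 3 (-0.25, adjusted p = 0.0495, edgeR). Psenen, a γ-secretase subunit and the most abundant gene of this role, had -0.15 (adjusted p = 0.443, edgeR).

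Of 9 tested corepressors, 1 passed the adjusted p, again near the 9.82% of all tested genes. Tle3, a Groucho-type corepressor through which Hes and Hey proteins act, named after its values were seen, measured 11.8, 14.6 and 16.1 FPKM in CON and 19.5, 18.7 and 19.4 FPKM in RA, and rose by 0.42 on the log2 scale (adjusted p = 0.0463, edgeR). In edgeR it lost the adjusted p when CON sample 2 (0.125) or any of the RA samples (0.133 to 0.158) was removed, at log2 fold changes of 0.41 to 0.44. It kept the call without CON sample 1 (0.30) and without CON sample 3 (0.53), and in both limma fits the adjusted p was 0.0517 and 0.0535. Ctbp1, the most abundant corepressor by the mean over all 6 samples, though below Hdac1 (named after its values were seen) in CON sample 1, had a value of 0.14 on this scale (adjusted p = 0.318, edgeR).

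Dlk1, an atypical ligand without the receptor-activating domain of the Delta family and often described as a Notch inhibitor, was the most abundant gene of all those listed. Its values were 108, 172 and 177 FPKM in CON and 114, 121 and 126 FPKM in RA. CON sample 1 lay below all RA samples and the other CON samples above them. Dlk1 had a log2 fold change of -0.36 (95% interval -0.75 to 0.036, adjusted p = 0.251, edgeR). Without CON sample 1 it was -0.56 and passed the adjusted p (3.41e-05, edgeR). The level of Dlk1 was between 28.9 and 41.5 times that of Jag1 in CON and between 22.9 and 24.7 times in RA.

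None of the tested genes of the other roles passed the adjusted p. These were 4 ubiquitin ligases of the ligands, the most abundant over all 6 samples being Mib2 (log2 fold change -0.074), 4 enzymes that glycosylate the receptors, the most abundant being Poglut1 (-0.076), and 8 negative regulators, 7 of them below 0 as were 51.1% of all tested genes, the most abundant being Dtx3 (-0.0033). The mean over all 6 samples set these names. Mib1 was above Mib2 in CON sample 1 and RA samples 1 and 2, and Itch was above Dtx3 in CON sample 1 (Mib1 and Itch named after their values were seen). Of the other targets, Hes6, a relative that is not a typical Notch target, was tested, at 8.33 ± 1.88 FPKM in CON and 8.75 ± 0.867 FPKM in RA (SD, n = 3 each, log2 fold change 0.055, adjusted p = 0.881, edgeR). Nrarp, a feedback inhibitor and sensitive readout of the pathway, named after its values were seen, had between 4 and 8 counts in every sample, and Hes5, also named after its values were seen, had 1 count in CON sample 3 and 0 elsewhere.

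**Figure D4:**
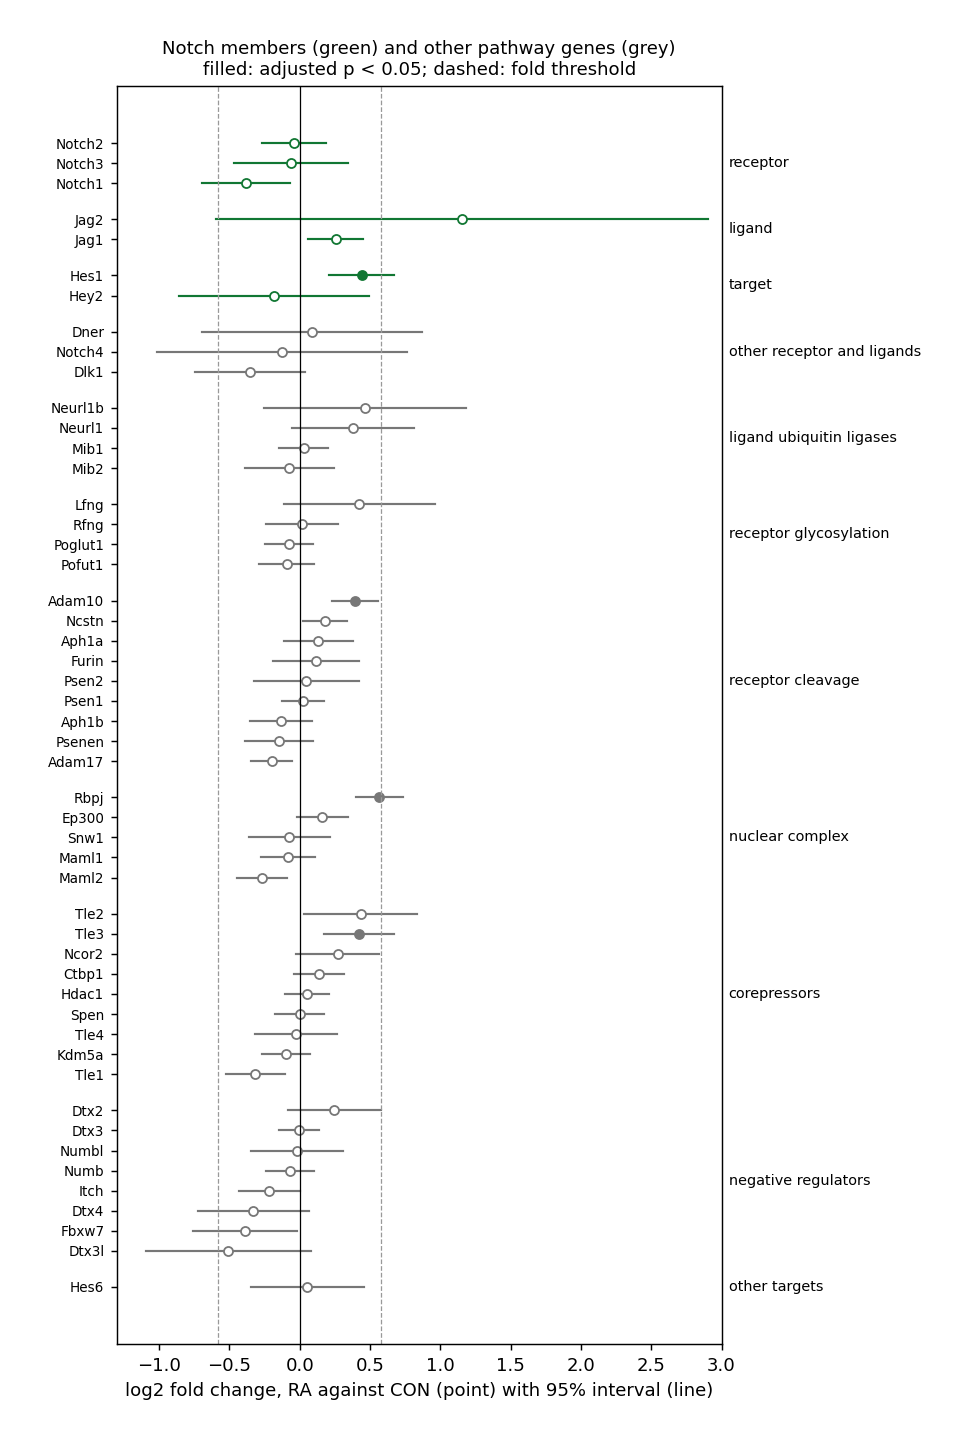
Log2 fold change of RA against CON (points) with its 95% interval (lines) for the 7 tested Notch members (green) and the 43 other tested pathway genes (grey), by role, with filled points for an adjusted p below 0.05. The 4 filled points, Hes1, Adam10, Rbpj and Tle3, all lie between 0 and the upper dashed line at 0.58, and the intervals of Jag2 and Hey2 are wide.

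The cells carried the markers of their label, and those of fibroblasts and perichondrium as well. The summed level of the latter was below that of the chondrocyte markers in CON and above it in RA. All 11 chondrocyte markers were tested, all 11 fell and 9 were DEGs, with a summed level of 6655 to 8788 FPKM in CON and 4232 to 4566 FPKM in RA. Beside this list and those below, 5.31% of all tested genes rose and 4.5% fell. DEGs made up 2.67% of all tested genes in the higher direction and 2.29% in the lower. Col2a1, the main collagen of cartilage, had a log2 fold change of -0.78 and Acan, its main proteoglycan, -1.51. In bulk RNA, fewer cells of a type and less RNA per cell cannot be told apart. Of the endothelial markers, which matter for the Hey genes, 7 of 10 were in the tables and 2 were tested, neither passing the adjusted p, with a sum of 5.61 to 8.07 FPKM in CON and 6.32 to 6.85 FPKM in RA. Egfl7, named after its values were seen, made up most of that sum (5.28 to 7.97 FPKM in CON), and the defining marker Cdh5 had at most 1 count per sample. Of the smooth muscle and pericyte markers, which matter for Notch3 and Heyl, 10 of 11 were in the tables and 9 were tested, with 2 lower DEGs. The sum of this list was 551 to 622 FPKM in CON and 467 to 506 FPKM in RA. Tagln (368 to 400 FPKM in CON) and Acta2 (103 to 115 FPKM in CON), named after their values were seen, made up most of that sum. The groups did not overlap for 2 of the 9 in the higher direction (18.9% of all tested genes) and for 5 in the lower (13.3%). The defining marker of this list, Myh11, measured from 0.993 to 1.27 FPKM. The fibroblast and perichondrium list (7 of 8 in the tables, all tested) had 2 genes up and 2 down by adjusted p, and a sum of 3831 to 5012 FPKM in CON and 4956 to 5202 FPKM in RA. The leukocyte list (7 of 8, with 4 tested) had no call and a sum of 13.8 to 15.0 against 16.3 to 17.8 FPKM, most of it from Cd14, named after its values were seen (11.9 to 13.5 against 14.5 to 15.8 FPKM), with the defining marker Ptprc at 5 counts or fewer. The osteoblast list (6 of 7, with 4 tested) had 1 gene up and 1 down at 11.9 to 13.5 against 12.4 to 13.2 FPKM. The skeletal muscle list (3 of 5, with 1 tested) summed to 0.0681 to 0.151 against 0.419 to 0.432 FPKM. Its tested gene, Myod1, named after its values were seen, had 7, 4 and 7 counts in CON and 25, 22 and 17 in RA. Myod1 was called higher in RA, but it reached the count filter only through the RA samples, where it was high. The part of these cell types in the values of the Notch genes was not tested.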

How the data were processed

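RNA was sequenced from 3 CON and 3 RA samples of primary rat chondrocytes. Per sample, the authors deposited unnormalized whole-number read counts for every gene, and FPKM values. The submitters' processing notes name HISAT2, HTSeq 0.13.5 and the build Rnor_6.0. The use of strand and the handling of shared reads are not given in the sources used here. Count, FPKM and total gave the same gene length in all 6 samples for 100% of 11039 genes with at least 50 counts (tolerance 1%), so the FPKM values the authors deposited hold no scaling beyond length and total count.

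Counts of 13438 genes kept by edgeR's filterByExpr (minimum count 10) were normalized by TMM and tested with edgeR 4.0.16 in R 4.3.3 (glmQLFit and glmQLFTest, two-sided, no covariates, Benjamini-Hochberg over all genes). Standard errors come from the F statistic. The p-values measure the spread between these samples, which the paper calls independent. Floors and intervals of counts cover counting error only. The fits were tested on simulated data. DESeq2 1.42.0, limma 3.58.1 on log2(FPKM + 0.1) and log2(FPKM + 1), other scalings, filters and call rules, a replicate block and leaving out each sample were the alternatives.

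The members and lists were chosen with earlier results of these data known. Named genes were all members, called genes of the wider list, the most abundant gene of each of its roles, Cyp26a1, Rarb and defining markers (Acan, Col2a1, Cdh5, Pecam1, Myh11 and Ptprc, of which Pecam1 was not analysed here). Promoter windows came from RefSeq (GRCr8), with 9 of 10 members, all but Hey1, matched by symbol.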

Additional observations from a re-analysis of the deposited data

How the results depend on the processing

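No member was a DEG in any fit that kept the fold threshold, from 0 to 0 with each sample left out. Without the fold threshold the count was 1 member (Hes1), 3 genes of the wider list and 1319 genes in all. With an unadjusted p below 0.05 and the fold threshold 1017 genes were called, and in limma on log2(FPKM + 1) 434, against 667. In limma on log2(FPKM + 0.1) 1 wider gene, Rbpj, was a DEG. With each sample left out the number ran from 480 to 755 in all and from 0 to 1 in the wider list. With each sample left out the log2 fold change of Notch2 ran from -0.13 to 0.068, above 0 without CON sample 3 or RA sample 1, and that of Notch3 from -0.23 to 0.076, above 0 without CON sample 3. Hes1, Jag1, Notch1, Jag2 and Hey2 kept their direction in every alternative that gave a value. The filter of at least 1 FPKM in 3 samples gave none for Notch3, Jag2 and Hey2. With the replicate number as a block, 684 genes were DEGs, with 0 members and 0 wider genes, and no member changed its call. The deviations of same-numbered samples correlated from -0.01 to 0.09, not every sample correlated best with its own number, and so the numbers were not taken as pairs. Depth limits Dll1, Hey1 and Jag2, each at 0 counts in at least 1 sample, and Heyl, at 1 count in 2 samples.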
